A study of Mus musculus with 12 samples.

Results

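Potassium channel subunit genes were followed through bead-bound and supernatant RNA of the mouse hypothalamus. The genes are the protein-coding entries of the count table whose mouse symbol starts with Kcn and whose mean over the 12 libraries was at least 1 CPM (counts scaled to the library total). This rule kept 74 of 94 protein-coding Kcn genes, in a table of 52638 entries. It used no contrast between groups, so every comparison below is independent of it, except that 20 genes of low level are left out. Just inside the threshold stood Kcnj8 (1.16 CPM), Kcnj14 (1.26 CPM) and Kcnh8 (2.04 CPM). Just outside it stood Kcnrg (0.700 CPM), Kcne2 (0.530 CPM) and Kcnmb1 (0.480 CPM). All 74 passed the filter on low counts in every comparison.

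Every mouse was an adult that was LepRb-Cre/Cre and R26-GFP:L10a/GFP:L10a, so that cells expressing the long leptin receptor (LepRb) carry a ribosomal protein, L10a, fused to green fluorescent protein. Stat3KO mice were in addition Stat3-flox/flox, and Ctrl mice carried both transgenes with no floxed allele named. Tagged ribosomes were captured on beads from a pool of hypothalamic tissue of 5 to 8 mice. The bead-bound RNA is thus meant to hold the RNA of LepRb cells, and the supernatant is the RNA left after the capture, from all cell types of the block. There were 3 pools per genotype and 2 fractions, hence 4 groups of 3 libraries. Cre acts wherever the LepRb promoter is active, now or earlier in life, so the tagged and recombined cells need not be 1 cell type. P-values between genotypes within a fraction measure the spread between such pools. The main fits between fractions, and that of the ratio between genotypes, treat the 2 libraries of a pool as independent. Their p-values therefore do not measure the spread of the difference within pools. Fits with the pool as a block do so and are given beside them.

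Potassium channels let potassium leave a cell, which holds the resting potential and ends action potentials. Voltage-gated Kv subunits open on depolarisation, inward rectifiers (Kir) and K2P leak channels act near rest, and calcium- or sodium-activated channels open as those ions enter. Accessory subunits bind the pore subunits and change their gating or traffic. In leptin-responsive neurons, KATP channels, Kv channels and G protein-gated Kir channels (GIRK) are known as targets of metabolic signals.

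Libraries held 20743217 to 41829907 counts. The transgene Gfp_L10a stood at 82.3 to 164 CPM in the bead-bound libraries and at 7.39 to 15.3 CPM in the supernatants, and the 2 ranges were far apart. Stat3, the targeted gene, had bead-bound levels of 143, 175 and 179 CPM in Ctrl pools and 114, 149 and 159 CPM in Stat3KO pools, and these groups overlapped. The log2 difference was -0.24 (SE 0.160, adjusted p = 0.999, edgeR). The table gives 1 count per gene, which does not show the loss of single exons, so the label Stat3KO was not checked by it. Summed neuron markers were 6983 to 9321 CPM on beads and 6414 to 7287 CPM in supernatants. Hypothalamic transcription factors and peptides were 529 to 1180 CPM on beads and 231 to 401 CPM in supernatants, so the labelled tissue carried its markers. The sums hide a split, since 4 of these 8 genes were called higher on beads in each genotype and 3 lower in Stat3KO. Thalamus markers were present too, at 652 to 1108 CPM in supernatants. Striatum and cortex markers differed between pools: they summed to 366, 405 and 296 CPM in Ctrl supernatants and to 395, 109 and 183 CPM in Stat3KO supernatants. In Stat3KO supernatants replicate 1 was therefore the highest and replicate 2 the lowest.

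Levels per length placed accessory subunits on top in both fractions. On beads, Kcnab2, a Kvβ subunit of the Kv1 channels, had 64.3 CPM per kb of exons (SD 10.9, n = 6 libraries of both genotypes), and Kcnip4, a calcium-binding KChIP subunit of the Kv4 channels, had 55.6 CPM per kb (SD 6.90). Their ranges, 52.0 to 84.4 and 50.0 to 69.0 CPM per kb, overlapped. The next levels per kb on beads were those of Kcnc4 (25.8), Kcnj9 (24.1) and Kcnip2 (21.7), whose ranges also overlapped. Kcnc4 encodes a fast Kv3 subunit and Kcnj9 a GIRK subunit. In supernatants Kcnab2 (70.2 CPM per kb) and Kcnip4 (54.2 CPM per kb) were again first, followed by Kcnc2 (30.5), Kcnab3 (27.0) and Kcnj9 (26.3). The 11 accessory subunit genes made up 33.4% ± 3.5 (SD, n = 3) of the summed level per kb of all 74 genes in Ctrl bead-bound RNA and 31.8% ± 1.92 in Ctrl supernatant. The 9 K2P genes made up 9.35% ± 0.358 on Ctrl beads and 6.95% ± 0.262 in Ctrl supernatant, and 8.86% ± 0.507 against 6.83% ± 0.464 in Stat3KO. The 7 calcium- or sodium-activated channel genes went the other way, with 3.46% ± 0.260 against 4.78% ± 0.117 in Ctrl and 3.38% ± 0.648 against 4.53% ± 0.210 in Stat3KO. The lowest levels per kb on beads were those of Kcnh4 (0.472), an ether-à-go-go gene of the forebrain, and Kcnj8 (0.476), the vascular KATP pore gene, and their ranges overlapped.

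**Figure D1:**
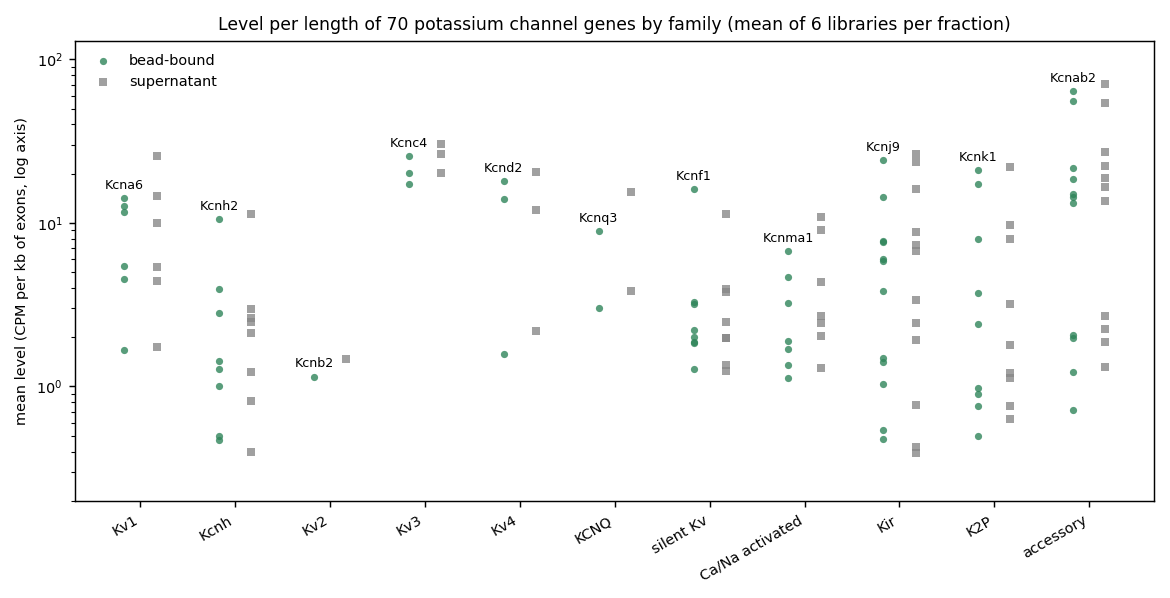
Mean level per kb of merged exons (CPM per kb, log axis) of 70 of the 74 genes, by family, in bead-bound (circles) and supernatant (squares) RNA, each the mean of 6 libraries. The gene with the top bead-bound level among those shown is named in each family; the top is Kcnab2 at 64.3 and the lowest bead-bound level is that of Kcnh4 at 0.472.

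Bead-bound RNA was compared with supernatant RNA to ask which channel genes stand out in RNA captured with the tagged ribosomes against the RNA left after the capture. In both genotypes, Kcna5, Kcnj5, Kcnk2, Kcnf1, Kcnh6 and Kcnip1 were higher on beads, by 0.44 to 1.44 on the log2 scale. In both genotypes 18 members were lower, led by the glial inward rectifiers Kcnj10 and Kcnj16 and by the axonal Kv1 genes Kcna1 and Kcna2. Summed over all 74 genes, the level was 3690 ± 144 CPM on beads and 4461 ± 310 CPM in supernatant in Ctrl (SD, n = 3), and 3427 ± 125 against 4269 ± 59.1 CPM in Stat3KO.

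In Ctrl, 8 members were higher and 19 lower at an adjusted p under 0.05 (edgeR quasi-likelihood test, Benjamini-Hochberg adjustment over all genes). Together these were 36.5% of the members, where 41.9% of all 18036 genes tested passed (20.7% higher, 21.2% lower). In Stat3KO, 6 members were higher and 21 lower, again 36.5%, where 32.1% of 18107 genes passed (14.7% higher, 17.3% lower). Over both directions together, the share of members called was thus near that of all genes. By direction it was not, since members called lower outnumbered those called higher in both genotypes, while all genes were split more evenly. The libraries of the fractions did not overlap for 9 members in the higher and 23 in the lower direction in Ctrl, where 26.1% and 28.0% of all genes did so, and for 9 and 32 in Stat3KO, where 23.9% and 25.0% did so. The median log2 difference of the members was -0.12 in Ctrl and -0.25 in Stat3KO, against -0.01 and -0.02 over all genes. The 6 members higher in both genotypes compare with 13.3% of 17603 genes tested in both, and the 18 members lower in both with 14.4%. Within pools, 8 members (10.8%) had the higher level on beads in all 6 pools, against 28.4% of all genes tested, and 35 members (47.3%) had the lower level on beads in all 6, against 30.3%. With library totals in place of TMM scaling, which shifts the median of all genes to -0.16 in Ctrl and -0.12 in Stat3KO, 5 members were higher and 26 lower in Ctrl (13.2% and 27.2% of all genes), and 6 and 25 in Stat3KO (10.2% and 20.5%). The members' medians were then -0.27 and -0.36. With the pool as a block, 13 members were higher and 31 lower in Ctrl (29.4% and 29.0% of all genes), and 7 and 32 in Stat3KO (23.7% and 26.0%). Without Ctrl supernatant replicate 2, 5 members were higher in Ctrl. Without Stat3KO supernatant replicate 2, 2 members were higher and 13 lower in Stat3KO, and without Stat3KO supernatant replicate 3, 3 were higher. How many of all genes were called in these fits, each leaving out a single library, is not given here. The lower counts of members therefore cannot be set against those of all genes.

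Libraries of the 2 genotypes are separate, so each genotype measures the fraction difference on its own pools. The sign of the difference was the same in both for 67 of 74 members (90.5%), close to the 89.6% of all 17603 genes. No member was called in opposite directions. Kcns3 and Kcnc4 were called higher in Ctrl alone, and Kcnd1, Kcnn1 and Kcnt2 lower in Stat3KO alone. In all, 44 members were called in neither genotype by these fits, which do not pair the libraries of a pool. The difference between genotypes is tested further on.

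**Figure D2:**
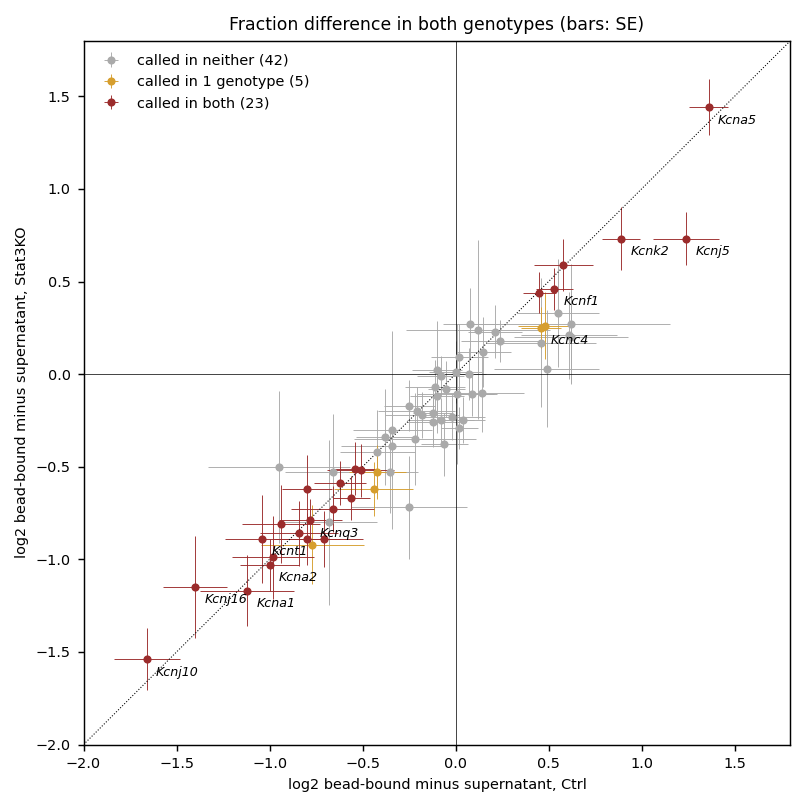
Log2 bead-bound minus supernatant level of 70 of the 74 genes in Ctrl (x axis) and Stat3KO (y axis) with standard errors; the dotted line marks equal differences. The 23 genes shown that were called in both genotypes lie along that line, from Kcnj10 (-1.66 and -1.54) to Kcna5 (1.36 and 1.44).

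A difference between fractions in bulk RNA can come from several sources, such as fewer cells of a type or less RNA per cell. Beads also capture RNA through ribosomes, while the supernatant is the RNA left after the capture. The ratio therefore need not be one of expression alone, and these sources cannot be told apart here. Markers of other cell types also moved with the fraction. Among markers tested between fractions, 7 of 9 astrocyte genes were lower on beads in Ctrl and 9 of 9 in Stat3KO, and 8 of 8 oligodendrocyte genes were lower in both. Astrocyte markers summed to 833 to 1353 CPM on beads and to 1520 to 1762 CPM in supernatants. Oligodendrocyte markers summed to 1671 to 3002 CPM on beads and to 4502 to 6855 CPM in supernatants. Thalamus markers were lower on beads for 4 of 4 genes in both genotypes, with summed levels of 415 to 528 CPM against 652 to 1108 CPM. Endothelial markers summed to 16.9 to 146 CPM on beads and to 18.4 to 24.6 CPM in supernatants, and were higher on beads for 7 of 8 genes in Ctrl (median log2 difference 1.85) and 6 of 8 in Stat3KO (1.87). Of 8 neuron markers 4 were higher in Ctrl (median 0.43) and 2 in Stat3KO (0.29). Of the astrocyte, oligodendrocyte, thalamus and endothelial lists, none of the defining markers was at 0. Their part in the members' differences was not tested.

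Among Kv1 genes, Kcna5 had a larger fraction difference than any other member called higher. Kcna5 (ENSMUSG00000045534, GRCm38 chromosome 6, 126532551 to 126535412) encodes the delayed rectifier subunit Kv1.5. It stood at 29.7, 31.9 and 30.8 CPM on Ctrl beads against 12.7, 11.8 and 11.6 CPM in Ctrl supernatant, and at 38.2, 35.9 and 33.4 CPM on Stat3KO beads against 15.6, 11.5 and 12.2 CPM in Stat3KO supernatant. All 6 bead-bound libraries lay above all 6 supernatants. The log2 difference was 1.36 in Ctrl (SE 0.105, adjusted p = 0.00013, edgeR) and 1.44 in Stat3KO (SE 0.151, adjusted p = 0.000326). It passed under each of the 14 other settings run in each genotype.

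Kcna2 and Kcna1, which encode the low-threshold subunits of axons and nerve terminals, went the opposite way. Kcna2 stood at 132, 165 and 171 CPM on Ctrl beads against 246, 348 and 342 CPM in supernatant, and at 129, 156 and 151 against 250, 318 and 314 CPM in Stat3KO. Every bead-bound library was below every supernatant, with log2 differences of -1.0 (SE 0.157, adjusted p = 0.002) and -1.03 (SE 0.139, adjusted p = 0.00111). Kcna1 stood at 13.5, 24.4 and 25.8 against 33.8, 53.6 and 51.4 CPM in Ctrl, and at 17.3, 21.5 and 27.8 against 41.4, 50.9 and 56.2 CPM in Stat3KO. Its groups did not overlap either, and its differences were -1.12 (SE 0.253, adjusted p = 0.00866) and -1.17 (SE 0.191, adjusted p = 0.00256). Both genes passed under all 14 other settings in both genotypes. In replicate 1 of both genotypes Kcna1 and Kcna2 were lowest in both fractions, yet the difference within that pool was like that of the others, at -1.32 and -1.26 for Kcna1. The other 3 Kv1 genes, Kcna3, Kcna4 and Kcna6, had log2 differences between -0.11 and 0.01 and did not pass; 39.6% of the exon bases of Kcna6 are shared with an antisense gene, Gm26673, whose reads cannot be told apart without strand.

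Kcna5, Kcna1 and Kcna6 stand beside each other on chromosome 6. Kcna1 starts 105 kb after the end of Kcna5, and Kcna6 starts 61.9 kb after the end of Kcna1. Neighbours in this cluster thus had fraction differences of 1.36, -1.12 and -0.08 in Ctrl. On chromosome 3, Kcna3 and Kcna2 are 63.1 kb apart, with 0.01 and -1.0. As a share of the summed Kv1 level per kb, Kcna5 made up 21.4% ± 2.22 (SD, n = 3) on Ctrl beads and 6.76% ± 1.44 in Ctrl supernatant, and 25.4% ± 3.10 against 7.79% ± 2.12 in Stat3KO. Kcna2 made up 25.7% ± 0.246 against 41.1% ± 1.58 in Ctrl and 24.6% ± 1.05 against 41.3% ± 1.61 in Stat3KO.

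Some other voltage-gated families also split between close relatives, and others did not. Of the Kv3 genes, which serve fast repolarisation, Kcnc1 and Kcnc2 were lower on beads in both genotypes. Kcnc1 stood at 169, 168 and 164 CPM on Ctrl beads against 223, 265 and 250 CPM in supernatant (log2 difference -0.56, SE 0.101, adjusted p = 0.0036), and at 174, 156 and 143 against 237, 253 and 256 CPM in Stat3KO (-0.67, SE 0.119, adjusted p = 0.00366). Kcnc2 stood at 124, 154 and 163 against 190, 241 and 246 CPM in Ctrl (-0.62, SE 0.139, adjusted p = 0.00868), and at 146, 136 and 139 against 185, 225 and 219 CPM in Stat3KO (-0.59, SE 0.119, adjusted p = 0.00632). The groups of both genes did not overlap, and both passed in all 14 other settings. Kcnc4, another Kv3 gene, stood at 105, 97.7 and 88.0 CPM on Ctrl beads against 73.7, 70.0 and 69.4 CPM in supernatant (0.46, SE 0.106, adjusted p = 0.0101), and at 94.0, 91.6 and 91.6 against 75.1, 74 and 82.2 CPM in Stat3KO (0.25, SE 0.110, adjusted p = 0.108). Its bead-bound libraries were the higher ones in both genotypes without overlap, while only the Ctrl difference passed; it passed in Stat3KO with the pool as a block (adjusted p = 0.0322). In Ctrl it missed the threshold with library totals (adjusted p = 0.0559) and without Ctrl supernatant replicate 2 (0.051).

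**Figure D3:**
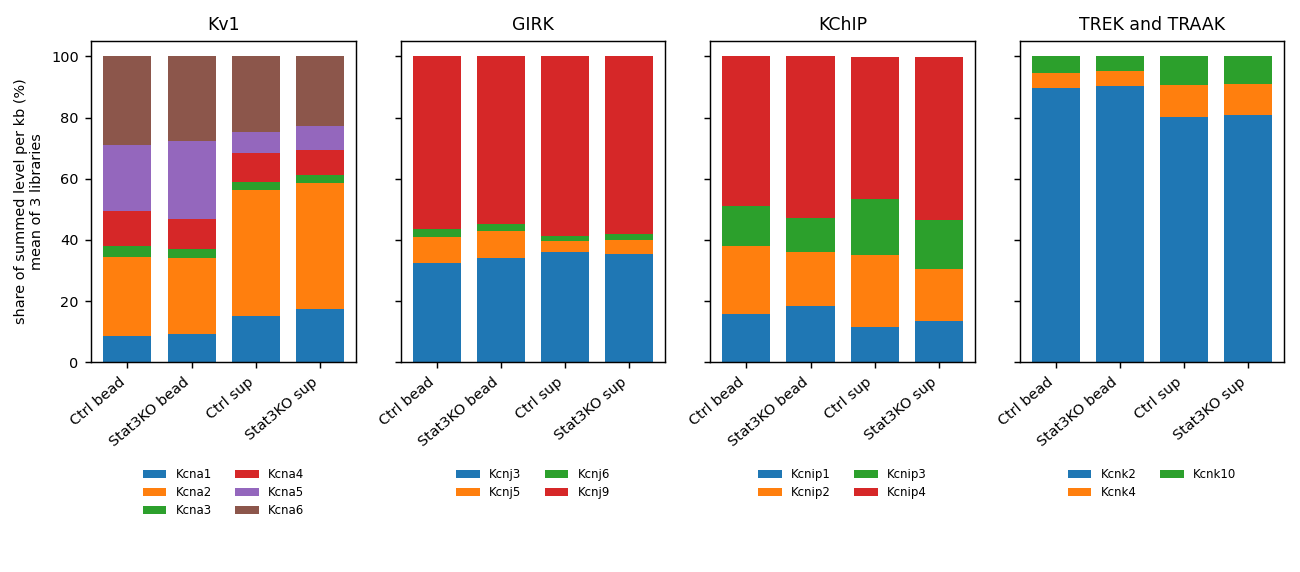
Share of each gene in the summed level per kb of its subunit group (Kv1, GIRK, KChIP, TREK and TRAAK), in percent, as the mean of 3 libraries in each of the 4 groups of libraries. Kcna5 takes 21.4% of Kv1 on Ctrl beads and 6.76% in Ctrl supernatant, and Kcnk2 takes 89.8% and 80.2% of the TREK and TRAAK group.

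The Kcnh genes encode the ether-à-go-go channels, among them the erg subunits that set firing adaptation. Kcnh6 stood at 12.1, 13.8 and 10.4 CPM on Ctrl beads against 9.07, 7.30 and 8.09 CPM in supernatant (0.58, SE 0.160, adjusted p = 0.0203), and at 16.5, 16.3 and 15 against 11.6, 10 and 9.88 CPM in Stat3KO (0.59, SE 0.140, adjusted p = 0.0121). No bead-bound library overlapped the supernatants of its genotype. The Ctrl call was lost with library totals (adjusted p = 0.0734), without Ctrl bead replicate 2 (0.0773) and without Ctrl supernatant replicate 2 (0.0951) or 3 (0.0607). The Stat3KO call was lost without Stat3KO supernatant replicate 2 (0.0613) or 3 (0.0542). Kcnh7, another erg gene, was lower on beads, with 24.4 CPM against 40 CPM in Ctrl (-0.71, SE 0.211, adjusted p = 0.0259) and 19.3 against 35.7 CPM in Stat3KO (-0.89, SE 0.152, adjusted p = 0.00305). Its groups did not overlap. The Ctrl call of Kcnh7 was lost without Ctrl bead replicate 2 (0.0654) or Ctrl supernatant replicate 2 (0.0891) or 3 (0.111). The other 6 Kcnh genes were called in neither genotype; with the block, Kcnh3 was lower in both (-0.73 and -0.72, adjusted p = 0.00134 and 0.00218), Kcnh4 in Ctrl (-1.03, 0.00218) and Kcnh2 in Stat3KO (-0.26, 0.0438).

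The KCNQ genes, Kcnq3 and Kcnq5 among them, encode subunits of the M current, which muscarinic receptors close. Kcnq3 stood at 108, 141 and 165 CPM on Ctrl beads against 194, 261 and 255 CPM in supernatant (-0.78, SE 0.170, adjusted p = 0.00767), and at 115, 133 and 130 against 204, 222 and 222 CPM in Stat3KO (-0.79, SE 0.115, adjusted p = 0.00154). The groups did not overlap, and both calls held in all 14 other settings. Kcnq5 had log2 differences of -0.38 (adjusted p = 0.0799) and -0.34 (adjusted p = 0.341), with no call; with the pool as a block it passed in both (adjusted p = 0.00291 and 0.0169).

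Kv2 and Kv4 channels carry the delayed rectifier and the A current of the soma and dendrites. Kcnb2, a Kv2 gene, had 19.5 CPM on Ctrl beads against 24.7 CPM in supernatant (-0.34, SE 0.276, adjusted p = 0.343) and 15.4 against 20.1 CPM in Stat3KO (-0.39, SE 0.178, adjusted p = 0.118). Its groups overlapped, each pool had the lower level on beads, and the block fit called it in both genotypes (adjusted p = 0.00834 and 0.0113). Kcnd2 and Kcnd3 had log2 differences of -0.21 and 0.24 in Ctrl and of -0.20 and 0.18 in Stat3KO, with no call; the block fit called both in Ctrl (adjusted p = 0.02 and 0.0396). Kcnd1, the third Kv4 gene, had -0.42 (adjusted p = 0.054; 0.021 with the block) in Ctrl and -0.53 (SE 0.145, adjusted p = 0.0218) in Stat3KO. That call was lost without any 1 of 5 Stat3KO libraries: supernatant replicate 1 (0.0573), 2 (0.0642) or 3 (0.0759) and bead replicate 2 (0.0513) or 3 (0.0806). It was also lost with no filter on low counts (0.0503).

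Silent Kv subunits form no channel alone and modify Kv2 channels. Kcnf1 stood at 70.1, 76.1 and 75.2 CPM on Ctrl beads against 47.0, 51.8 and 55.1 CPM in supernatant (0.53, SE 0.0999, adjusted p = 0.00425), and at 81.1, 84.6 and 74.5 against 55.2, 58.4 and 59.7 CPM in Stat3KO (0.46, SE 0.114, adjusted p = 0.0146). The groups did not overlap; the Stat3KO call was lost without Stat3KO supernatant replicate 2 (0.0634). Kcng4 was lower on beads, with 8.02 CPM against 15.8 CPM in Ctrl (-0.98, SE 0.221, adjusted p = 0.00877) and 7.25 against 14.3 CPM in Stat3KO (-0.99, SE 0.222, adjusted p = 0.00977), in all 14 other settings too. Kcns3 had 10.3 against 7.40 CPM in Ctrl (0.48, SE 0.144, adjusted p = 0.0285) and 0.26 (adjusted p = 0.288) in Stat3KO. The Kcns3 call was lost with library totals (0.105), without Ctrl bead replicate 2 (0.101) or 3 (0.0563) and without Ctrl supernatant replicate 1 (0.0822), 2 (0.11) or 3 (0.0728). The other 5 silent Kv genes were not called, except Kcng2, higher in Ctrl with the block (0.52, adjusted p = 0.0228).

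**Figure D4:**
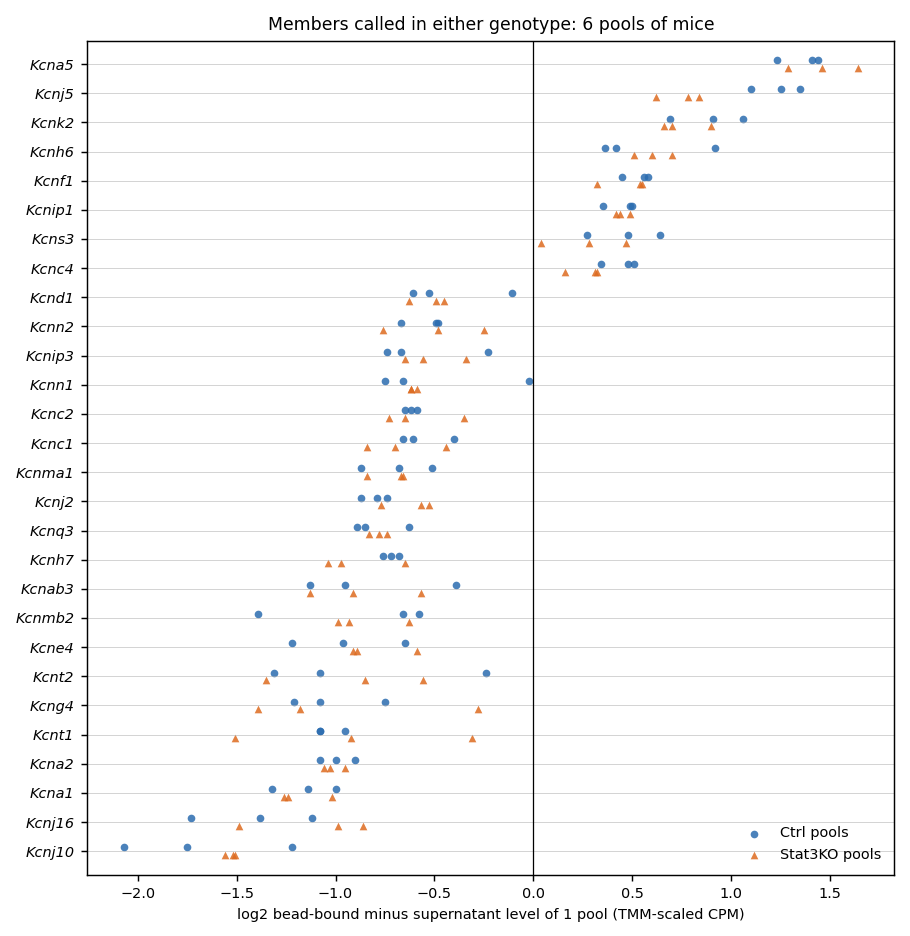
Log2 bead-bound minus supernatant level within each pool of mice (TMM-scaled CPM), for 28 of the genes called in Ctrl, in Stat3KO or in both; circles are the 3 Ctrl pools and triangles the 3 Stat3KO pools. All 6 pools lie right of 0 for the top 8 genes and left of 0 for the other 20.

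Among inward rectifiers, the glial genes and 1 GIRK gene differed most. Kcnj10 (chromosome 1, 172341210 to 172374085) encodes Kir4.1, the potassium-buffering channel of astrocytes and oligodendrocytes. It stood at 53.3, 33.9 and 46.5 CPM on Ctrl beads against 124, 142 and 157 CPM in supernatant, and at 42.3, 43.4 and 32.2 against 120, 128 and 92.7 CPM in Stat3KO. Every bead-bound library was far below every supernatant, with log2 differences of -1.66 (SE 0.178, adjusted p = 0.000427) and -1.54 (SE 0.168, adjusted p = 0.000385) that passed in all 14 other settings. Kcnj16, whose Kir5.1 subunit pairs with Kir4.1, stood at 5.92, 4.42 and 6.13 against 12.8, 14.6 and 16 CPM in Ctrl and at 7.36, 5.09 and 4.32 against 14.6, 14.3 and 7.82 CPM in Stat3KO. Its groups did not overlap, with -1.40 (SE 0.173, adjusted p = 0.000732) and -1.15 (SE 0.276, adjusted p = 0.0128). The Stat3KO call of Kcnj16 was lost without Stat3KO supernatant replicate 2 (0.0586) or Stat3KO bead replicate 3 (0.0506). The astrocyte and oligodendrocyte markers fell on beads beside both genes, as given above, and their part was not tested. Kcnj9 lies 11.9 kb from Kcnj10 and had differences of 0.02 and -0.29 with no call; the block fit called it lower in Stat3KO (adjusted p = 0.0154). Kcnj2, encoding Kir2.1, lies 38.2 kb from Kcnj16 and was lower on beads, with -0.80 (SE 0.134, adjusted p = 0.00256) in Ctrl and -0.62 (SE 0.183, adjusted p = 0.0286) in Stat3KO. The Stat3KO call of Kcnj2 was lost without supernatant replicate 1 (0.0842), 2 (0.0863) or 3 (0.0539) and without bead replicate 2 (0.0602) or 3 (0.1).

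GIRK channels open when receptors for GABA, opioids or neuropeptide Y release G protein βγ subunits. Kcnj5 (GRCm38 chromosome 9), which encodes GIRK4, stood at 14.8, 20.0 and 22.7 CPM on Ctrl beads against 6.95, 8.41 and 8.90 CPM in supernatant, and at 17.1, 16.5 and 16 against 11.1, 9.65 and 8.89 CPM in Stat3KO. All 6 bead-bound libraries lay above all 6 supernatants. The log2 difference was 1.24 (SE 0.177, adjusted p = 0.0013) in Ctrl and 0.73 (SE 0.143, adjusted p = 0.00562) in Stat3KO, with calls in all 14 other settings. Kcnj5 made up 8.64% ± 1.39 of the summed GIRK level per kb on Ctrl beads and 3.84% ± 0.239 in Ctrl supernatant, and 8.90% ± 0.0991 against 4.68% ± 0.727 in Stat3KO. Most of the GIRK level per kb was Kcnj9, at 56.6% ± 7.29 on Ctrl beads and 58.7% ± 4.91 in Ctrl supernatant. Kcnj3 had -0.08 (SE 0.179, adjusted p = 0.748) in Ctrl and -0.25 (SE 0.122, adjusted p = 0.136; 0.0445 with the block) in Stat3KO. Kcnj6 had 0.62 (SE 0.305, adjusted p = 0.134) and 0.20 (SE 0.250, adjusted p = 0.557), and passed in Ctrl with the pool as a block (adjusted p = 0.00879). An antisense gene, Gm26794, shares 31.1% of the exon bases of Kcnj3.

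KATP channels join a Kir6 pore to a sulfonylurea receptor and close as ATP rises. Kcnj11, the neuronal pore gene, stood at 33.4, 28.3 and 24.2 CPM on Ctrl beads and at 31.8, 31.8 and 29.8 CPM in supernatant, which overlapped (-0.12, SE 0.139, adjusted p = 0.522). In Stat3KO it stood at 30.4, 28.7 and 24.7 against 36.6, 31.6 and 31.6 CPM (-0.26, SE 0.134, adjusted p = 0.156; 0.0402 with the pool as a block). Kcnj11 made up 93.9% to 95.7% of the pore level per kb in the 4 groups. Kcnj8 ranged from 0.409 to 1.73 CPM over all libraries with no call. The receptor gene Abcc8 stood at 8.00, 8.43 and 9.95 CPM on Ctrl beads against 12.3, 13.7 and 11.4 CPM in supernatant (-0.50, SE 0.143, adjusted p = 0.0227) and had -0.50 (SE 0.232, adjusted p = 0.126; 0.0124 with the pool as a block) in Stat3KO. Its Ctrl call was lost in the fit of all 12 libraries (adjusted p = 0.0629) and without Ctrl bead replicate 2 (0.0814) or Ctrl supernatant replicate 2 (0.1) or 3 (0.051). Abcc9, the vascular receptor gene, stood at 1.79, 2.95 and 5.03 against 1.81, 1.56 and 2.46 CPM in Ctrl (0.75, adjusted p = 0.127; 0.0294 with the pool as a block), and at 1.16, 3.78 and 4.89 against 1.99, 1.64 and 1.54 CPM in Stat3KO (0.91, adjusted p = 0.135; 0.0984 with the block). The endothelial markers summed to 55.6, 67.6 and 136 CPM on Ctrl beads, in the order of Abcc9. On Stat3KO beads they summed to 16.9, 146 and 105 CPM, where replicate 1 was lowest for both but replicates 2 and 3 stood in the other order. Mural cell markers summed to 80.5, 65.1 and 103 CPM on Ctrl beads, not in the order of Abcc9, and to 36.5, 115 and 76.9 CPM on Stat3KO beads. The median log2 fraction difference of the mural markers was -0.02 in Ctrl and -0.09 in Stat3KO. The part of both marker lists was not tested. Kcnj13, a further Kir gene known from epithelia, was under the threshold at 0.208 CPM.

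K2P channels carry leak currents. Kcnk2 encodes TREK-1, a leak channel sensitive to stretch, lipids and acid. It stood at 79.7, 94.3 and 98.4 CPM on Ctrl beads against 49.4, 50.3 and 47.1 CPM in supernatant, and at 91.7, 70.8 and 73.7 against 58.1, 43.7 and 39.5 CPM in Stat3KO. The bead-bound libraries were the higher ones without overlap. The log2 difference was 0.89 (SE 0.103, adjusted p = 0.000574) in Ctrl and 0.73 (SE 0.170, adjusted p = 0.0114) in Stat3KO. The Stat3KO call was lost without Stat3KO supernatant replicate 2 (0.0568) or 3 (0.0512). An antisense gene, A430027H14Rik, shares 12.2% of its exon bases. Kcnk2 made up 89.8% ± 1.5 of the summed level per kb of its TREK and TRAAK group on Ctrl beads and 80.2% ± 0.922 in Ctrl supernatant. Kcnk1, the top K2P gene per kb, had -0.05 (SE 0.0990, adjusted p = 0.681) and -0.08 (SE 0.153, adjusted p = 0.708). The other 8 K2P genes were not called; with the block, Kcnk9 (0.50, adjusted p = 0.00463) and Kcnk12 (0.56, 0.031) were higher and Kcnk4 (-0.43, 0.0343) and Kcnk6 (-0.68, 0.0278) lower in Ctrl, and Kcnk10 was lower in Stat3KO (-0.39, 0.035).

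Calcium- and sodium-activated channels were lower or not called. Kcnma1, the pore gene of the BK channel, stood at 81.5, 134 and 149 CPM on Ctrl beads against 149, 214 and 212 CPM in supernatant (-0.66, SE 0.223, adjusted p = 0.0427), and at 94.0, 115 and 117 against 168, 183 and 185 CPM in Stat3KO (-0.73, SE 0.125, adjusted p = 0.00319). The Ctrl groups met at their edge, but each pool had the lower level on beads. The Ctrl call was lost without Ctrl bead replicate 2 (0.0784) or Ctrl supernatant replicate 2 (0.137) or 3 (0.143), and the block fit gave an adjusted p of 2.93e-05. Kcnt1, a sodium-activated channel gene, stood at 53.0, 39.5 and 36.9 against 112, 83.2 and 71.5 CPM in Ctrl (-1.04, SE 0.201, adjusted p = 0.00463), and at 35.3, 63.6 and 35.9 against 100, 79.0 and 68.0 CPM in Stat3KO (-0.89, SE 0.240, adjusted p = 0.021). Neither pair of groups overlapped. In Stat3KO, replicate 2 stood apart on beads, and the call was lost without supernatant replicate 1 (0.0726) or 2 (0.0619) or bead replicate 3 (0.0779). Its relative Kcnt2 had -0.77 (adjusted p = 0.0531; 0.00278 with the block) in Ctrl and -0.92 (SE 0.213, adjusted p = 0.0113) in Stat3KO, which was lost without Stat3KO supernatant replicate 2 (0.062).

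The SK genes encode small-conductance channels of the medium afterhyperpolarisation. Kcnn2 was lower on beads, with -0.54 (SE 0.128, adjusted p = 0.0111) in Ctrl and -0.51 (SE 0.145, adjusted p = 0.025) in Stat3KO. Its Ctrl call was lost without Ctrl supernatant replicate 3 (0.0572), and its Stat3KO call without bead replicate 2 (0.0707) or 3 (0.0823) or supernatant replicate 2 (0.13) or 3 (0.0657). Kcnn1 passed in Stat3KO alone, with -0.62 (SE 0.144, adjusted p = 0.0111), which was lost without Stat3KO supernatant replicate 2 (0.0647); in Ctrl it had -0.44 (adjusted p = 0.129; 0.0235 with the block). Kcnn3 had -0.35 (adjusted p = 0.0898) and -0.53 (adjusted p = 0.0903) and passed in both genotypes with the pool as a block (0.00241 and 0.00162).

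Accessory genes differed within their own groups. Kcnip1, which encodes a KChIP of Kv4 channels, stood at 100, 113 and 109 CPM on Ctrl beads against 78.8, 80.0 and 77.6 CPM in supernatant (0.45, SE 0.0901, adjusted p = 0.00522), and at 126, 115 and 125 against 94.0, 85.1 and 89.1 CPM in Stat3KO (0.44, SE 0.111, adjusted p = 0.0154). Its groups did not overlap; the Stat3KO call was lost without Stat3KO supernatant replicate 2 (0.0821) or 3 (0.058). Kcnip3, a KChIP also known as a calcium-sensitive repressor in the nucleus, was lower on beads, with -0.51 (SE 0.179, adjusted p = 0.0481) and -0.52 (SE 0.144, adjusted p = 0.0226). Its Ctrl call was lost without bead replicate 2 (0.167) or 3 (0.134) or supernatant replicate 1 (0.0942), 2 (0.0876) or 3 (0.0826). Its Stat3KO call was lost without bead replicate 2 (0.0746) or 3 (0.0794) or supernatant replicate 1 (0.0593) or 3 (0.0865). Kcnip2 and Kcnip4 were not called.

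Kcnab3, a Kvβ subunit gene, stood at 49.4, 33.8 and 32.4 CPM on Ctrl beads against 64.9, 73.9 and 62.5 CPM in supernatant (-0.80, SE 0.178, adjusted p = 0.00851), and at 49.0, 49.1 and 44.9 against 72.5, 92.4 and 98.1 CPM in Stat3KO (-0.89, SE 0.140, adjusted p = 0.0022). The groups did not overlap and the calls held in all 14 other settings, while Kcnab1 and Kcnab2 were not called, except Kcnab1 in Ctrl with the block (-0.25, adjusted p = 0.0144). Kcnmb2, a subunit that inactivates BK channels, had -0.84 (SE 0.210, adjusted p = 0.0134) and -0.86 (SE 0.175, adjusted p = 0.00644). Its Ctrl call was lost without Ctrl supernatant replicate 3 (0.0572). Kcne4, which slows or blocks several Kv channels, had -0.94 (SE 0.210, adjusted p = 0.00828) and -0.81 (SE 0.210, adjusted p = 0.0174), at a low level of 1.61 to 3.99 CPM. Its Stat3KO call was lost without supernatant replicate 2 (0.089) or 3 (0.0575) or bead replicate 3 (0.0586). Kcne1l was not called, except lower in Stat3KO with the block (-0.76, adjusted p = 0.0163).

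Promoters were read because STAT3 binds DNA as a dimer at the motif TTCNNNGAA, which reads the same on both strands. RefSeq start sites (GRCm38.p6, 250 bases before to 50 after the start) were found for 52 of 74 members, with 75 promoters. The motif lay in 8 of them (10.7%), against 8.3% of all 32851 promoters of the table. Of the 11 promoters of the members higher on beads in both genotypes 1 held it, and of 20 promoters of the members lower in both 3 did. These 4 are shown with 51 bases each, on the strand of the gene, with the motif in capitals, because they belong to members of both directions and show the motif in genes that went opposite ways.
Kcnip1 (higher, chr11:33680851-33680901, - strand): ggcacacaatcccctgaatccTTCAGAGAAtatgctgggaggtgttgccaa
Kcnip3 (lower, chr2:127522129-127522179, - strand): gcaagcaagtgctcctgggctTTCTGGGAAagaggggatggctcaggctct
Kcnj16 (lower, chr11:110967827-110967877, + strand): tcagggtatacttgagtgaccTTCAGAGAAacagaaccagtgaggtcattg
Kcnmb2 (lower, chr3:31902652-31902702, + strand): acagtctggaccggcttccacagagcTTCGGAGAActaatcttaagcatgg
The motif starts 198, 64, 185 and 25 bases before the start site of the promoter shown in these 4. Kcnip1, Kcnip3 and Kcnj16 also have other promoters among those searched, which lack the motif. Kcnip1 and Kcnj16 hold the same 9 letters. A match describes these letters and not binding. Members' promoters had a median GC content of 60.3%, against 52.7% over all promoters, and a median of 10 CpG against 7.

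Genes that work with these channels under other symbols were read in the same fits. Of 35 listed partners 34 were tested, and Lrrc52 was too low. In Ctrl 4 were higher and 8 lower on beads (35.3%, where 41.9% of all genes passed), and in Stat3KO 2 and 9 (32.4%, where 32.1% passed). With library totals, 1 partner was higher and 11 were lower in Ctrl, and 0 and 12 in Stat3KO. The shares of all genes under that setting are those given above beside the members. Cntn2 and Rgs7bp kept their calls in all settings in both genotypes. Cntn2, an adhesion protein that gathers Kv1 channels beside nodes of Ranvier, stood at 70.0, 74.6 and 70.1 CPM on Ctrl beads against 117, 125 and 122 CPM in supernatant (-0.76, SE 0.0903, adjusted p = 0.000624) and had -0.72 (SE 0.139, adjusted p = 0.00528) in Stat3KO. Of the 10 genes listed for the axonal Kv1 complex, 4 were lower in Ctrl and 5 in Stat3KO, where 21.2% and 17.3% of all genes were lower, and none was higher. Rgs7bp, which anchors regulators of G protein signalling near GIRK channels, stood at 235, 251 and 277 CPM on Ctrl beads against 417, 537 and 545 CPM in supernatant (-0.97, SE 0.129, adjusted p = 0.000984) and had -0.94 (SE 0.136, adjusted p = 0.00151) in Stat3KO. Its groups and those of Cntn2 did not overlap. With the pool as a block 10 partners were higher in Ctrl (29.4% of all genes), and 5 higher and 14 lower in Stat3KO (23.7% and 26.0%). Without single Ctrl libraries the number higher in Ctrl was 1 (supernatant replicate 1 or bead replicate 2), 0 (supernatant replicate 2) or 2 (bead or supernatant replicate 3), and the number lower was 5 (bead replicate 2 or supernatant replicate 3) or 4 (supernatant replicate 2). Without single Stat3KO libraries the number higher was 0 or 1, except without bead replicate 1. The number lower was 4 without supernatant replicate 2 and 5 without supernatant replicate 3. The shares of all genes called in these fits are not given here.

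Stat3KO was compared with Ctrl within each fraction to ask whether loss of Stat3 in LepRb cells changes channel expression. No member passed in bead-bound RNA, where 0.449% of 17354 genes did (0.421% higher, 0.0288% lower), and none in supernatant, where 0.0108% of 18547 genes did, all lower. DESeq2 called no member on beads, where it called 0.622% of genes higher and 0.0922% lower, and none in supernatant (0.0755% and 0.156%). The limma-voom fit called none on beads (0.432% and 0.023%) and none in supernatant, where 0.0108% of genes were lower. The median log2 difference of the members was -0.19 on beads and -0.13 in supernatant, near 0 for all genes. Single members ranged from -0.72 to 0.40 on beads and from -1.18 to 0.38 in supernatant. The 95% interval lay within 1 log2 unit of 0 for 63 of 74 members on beads and for 70 of 74 in supernatant, so for these members a change beyond a factor of 2 in either direction lies outside the interval.

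At an unadjusted p under 0.05, 1 member was higher and 2 were lower on beads, where 4.11% of all genes passed that limit (2.1% higher, 2.01% lower). Kcnk10, a relative of TREK-1, stood at 5.91, 7.58 and 8.06 CPM in Stat3KO against 9.09, 10.6 and 10 CPM in Ctrl, with no overlap (-0.46, SE 0.189, adjusted p = 0.999). Kcnh6 stood at 16.5, 16.3 and 15 against 12.1, 13.8 and 10.4 CPM, with every Stat3KO library the higher (0.40, SE 0.171, adjusted p = 0.999). Kcnj14 had -0.71 (SE 0.312, adjusted p = 0.999) at levels near the threshold. The groups did not overlap for 3 members in the higher direction (Kcna5, Kcnh6 and Kcnip1) and for 9 in the lower, 16.2% of members, against 9.38% of all genes (5.1% higher, 4.28% lower). Kcna5 thus stood at 38.2, 35.9 and 33.4 CPM in Stat3KO and at 29.7, 31.9 and 30.8 CPM in Ctrl, but missed the threshold (adjusted p = 0.999).

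In supernatant, 2 members were higher and 5 lower at an unadjusted p under 0.05, where 6.2% of all genes passed that limit (2.09% higher, 4.1% lower). The groups did not overlap for 6 members in the higher and 7 in the lower direction, where 12.7% of all genes did so (6.4% higher, 6.25% lower). Kcnh4 stood at 3.28, 1.02 and 1.62 CPM in Stat3KO against 5.88, 4.23 and 3.44 CPM in Ctrl (-1.18, SE 0.362, adjusted p = 0.582). Kcnv1, a silent subunit gene, stood at 9.23, 6.16 and 6.64 against 9.47, 10.9 and 11.9 CPM (-0.56, SE 0.179, adjusted p = 0.607). Stat3KO replicate 1 was the one nearest to Ctrl in both genes. It was also the Stat3KO supernatant with the most striatum and cortex marker RNA, whose part in these differences was not tested. Kcnab3 stood at 72.5, 92.4 and 98.1 against 64.9, 73.9 and 62.5 CPM (0.38, SE 0.127, adjusted p = 0.652). Kcnh6 was again the higher in Stat3KO without overlap, at 11.6, 10 and 9.88 against 9.07, 7.30 and 8.09 CPM (0.36, SE 0.145, adjusted p = 0.77). Kcng1 had -0.41, Kcnip3 -0.26 and Kcnj10 -0.32. Beside the glial gene Kcnj10, oligodendrocyte markers summed to 4955, 5092 and 4502 CPM in Stat3KO supernatants and to 5443, 5899 and 6855 CPM in those of Ctrl, with all Stat3KO libraries lower. All 8 had a negative log2 difference (median -0.51), 5 at an unadjusted p under 0.05, and 4 of 9 astrocyte markers were lower at that limit (median -0.29). None of them passed the adjusted threshold, and their part in the difference of Kcnj10 was not tested.

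**Figure D5:**
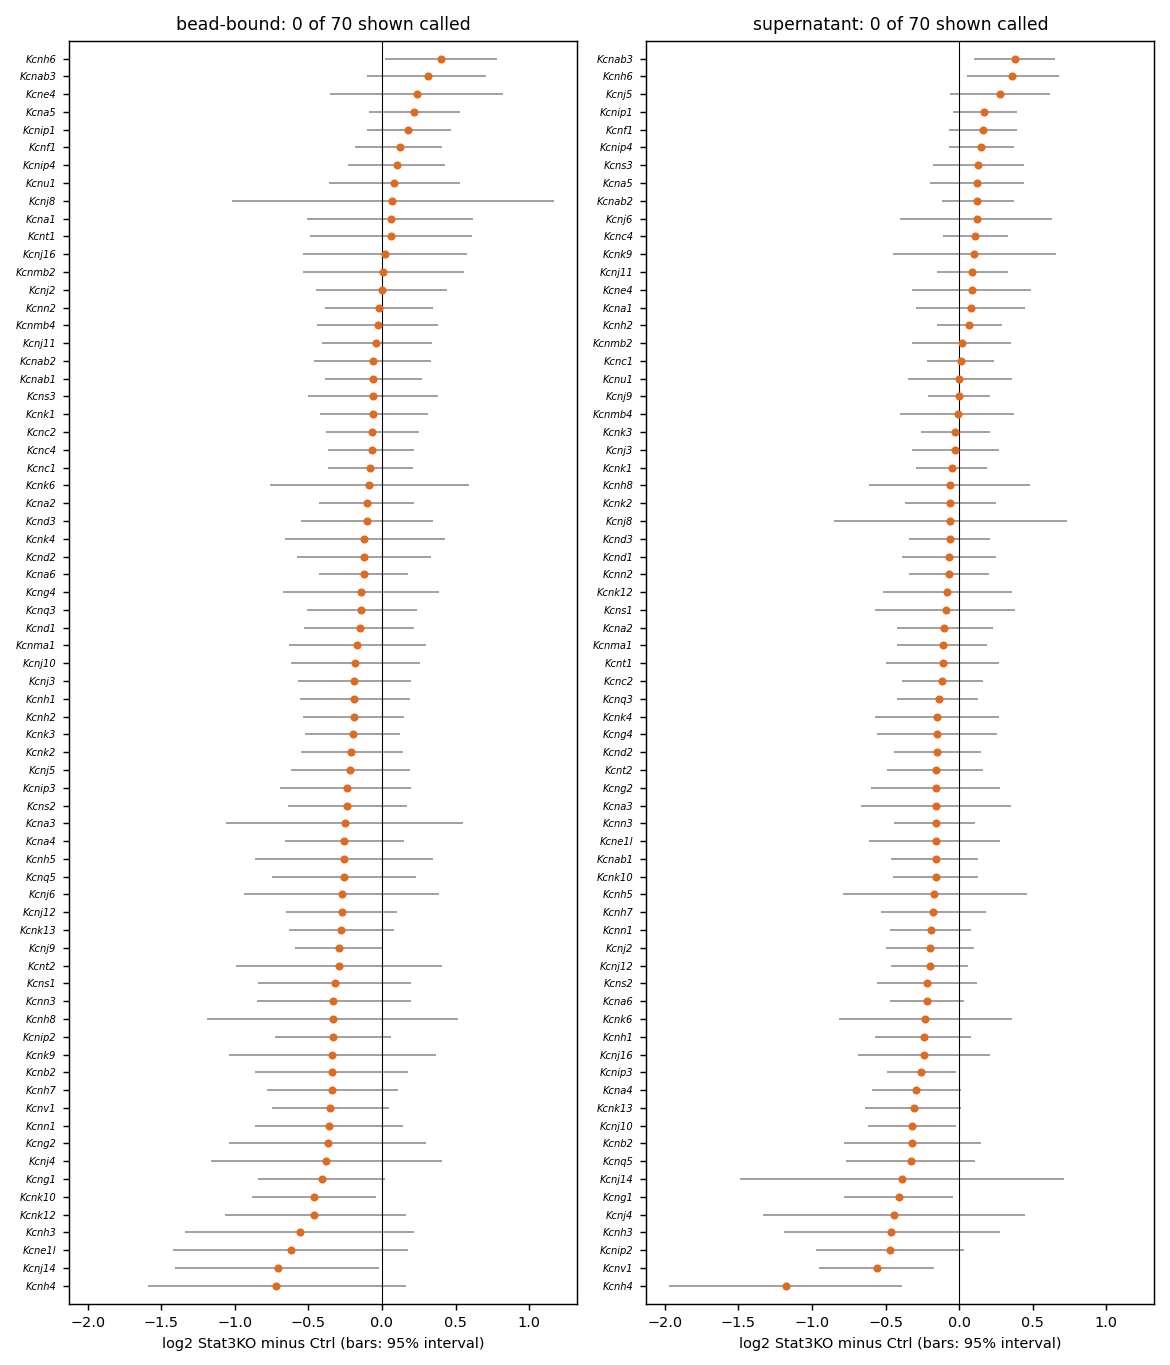
Log2 Stat3KO minus Ctrl level of 70 of the 74 genes with its 95% interval, in bead-bound (left) and supernatant (right) RNA, n = 3 pools per group, genes ordered by their difference. None passed the adjusted threshold; differences run from -0.72 to 0.40 on beads and from -1.18 to 0.38 in supernatant.

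On beads, leaving out any 1 library called no member. With replicates 2 and 3 of each group alone, 1 member was higher and 9 lower on beads (1.56% and 5.1% of all genes), and 1 was higher and 15 lower in supernatant (1.07% and 4.22%). Kcnab3 was the higher one in both fractions, with 0.48 and 0.47. Lower in both were Kcnh3, Kcnb2, Kcnd2, Kcnq5, Kcnip2 and Kcnj4. Kcnj4, which encodes Kir2.3 and is known from the forebrain, stood at 25.6, 5.52 and 8.97 CPM in Stat3KO supernatants 1, 2 and 3 and at 15.8, 20.0 and 18.6 CPM in those of Ctrl. Its highest Stat3KO library was 4.63 times its lowest, the widest spread of any member in that group, where the median over members was 1.26. Replicate 1 lay above all Ctrl libraries and replicates 2 and 3 lay below them. Kcnip2 stood at 95.6, 44.4 and 56.0 CPM against 104, 88.0 and 79.5 CPM, and Kcnh3 at 17.6, 5.31 and 7.78 against 16.1, 14.2 and 12.0 CPM, in the same order. The striatum and cortex markers of the Stat3KO supernatants, at 395, 109 and 183 CPM, followed this order too. So did Kcnq5, at 36.4, 20.8 and 22.1 CPM. Kcnd2, at 108, 101 and 94.8 CPM, and Kcnb2, at 15.7, 22.7 and 21.8 CPM, did not. The part of these markers in the differences was not tested. Without Stat3KO supernatant replicate 1 alone, Kcnip2 and Kcnj4 were called lower in supernatant, and the share of all genes lower in that fit is not given here. With no filter on low counts, Kcnh4 and Kcnip2 were called lower, where 0.479% of all genes were lower.

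The genotype difference of the bead to supernatant ratio was tested over all 12 libraries, and no member passed, where 0.204% of 19122 genes did (0.193% higher, 0.0105% lower). At an unadjusted p under 0.05 there was 1 member, Kcnj5, where 2.12% of genes passed that limit (1.44% higher, 0.675% lower). Within pools its log2 difference was 1.10, 1.25 and 1.35 in Ctrl and 0.62, 0.78 and 0.84 in Stat3KO. All Stat3KO pools thus lay below all Ctrl pools, as they also did for other members such as Kcnj9, Kcnc4 and Kcnk9. The share of all genes with pools apart in this way is not given here. The genotype difference of the Kcnj5 ratio was -0.50 (SE 0.233, unadjusted p = 0.0482, adjusted p = 1, edgeR, and 0.708 with the pool as a block). Kcnj9 followed with -0.30 (SE 0.145, adjusted p = 1). For 58 of 74 members the 95% interval of this difference lay within 1 log2 unit of 0. DESeq2 called no member for this term, with 0.314% of genes higher and 0.0157% lower, and limma-voom called none, with 0.162% and 0.00523%.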

How the data were processed

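Bead-bound and supernatant RNA of 6 pools of mice gave 12 RNA-seq libraries. The authors deposited 1 table of raw counts per gene; per the submitters' processing notes, STAR 2.5.3a and the mm10 genome were used. The counting step, its annotation and its strand setting: not given in the sources used here. Gene names came from a GENCODE annotation of GRCm38 (52489 of 52638 IDs matched, 149 did not). Levels are CPM on library sizes scaled with TMM factors; the member rule used plain library totals. Levels between genes are per kb of merged exons. Genes were kept by filterByExpr (count of 10, total of 15) and tested with edgeR 4.0.16 (R 4.3.3), quasi-likelihood, two-sided, in the groups compared, adjusted by Benjamini-Hochberg over all genes; a call is an adjusted p under 0.05. The script was tested on simulated data. Intervals are 95%. Within a fraction they cover the spread between pools, and for the ratio they come from a fit that does not pair the libraries of a pool. Library totals of 20743217 to 41829907 limit precision for low genes.

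The members, lists and tests were chosen with earlier results of these data known. Named with values were members past the threshold (up to 12 each way by log2 difference), the 6 of smallest p where fewer than 6 passed, genes fixed by role, the 3 on each side of the rule's threshold and the 5 highest per kb. Further genes were named because every member may be. Counts cover all 74 members, but the values of 4 of them are not reported here.

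The bead-bound and supernatant libraries of 1 number come from the same pool per the labels, and their deviations from the group means correlated at 0.196 to 0.367, so they are paired; the pool as a block is an alternative. Between genotypes the numbers do not pair. Alternatives were RLE size factors, library totals, no filter, DESeq2 1.42.0, limma-voom (limma 3.58.1), the replicate block, all 12 libraries in 1 fit, replicates 2 and 3 alone, and leaving out each library.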

Additional observations from a re-analysis of the deposited data

How the results depend on the processing

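RLE size factors, DESeq2, limma-voom and a fit of all 12 libraries kept every count of members within 1.5 times. In Ctrl, 8 members were higher and 19 lower on beads. Library totals gave 5 higher (13.2% of all genes). The replicate block gave 13 higher and 31 lower (29.4% and 29.0%). Replicates 2 and 3 alone gave 29 lower, where 4774 of all genes were lower and 4848 higher, together 52.4%. Leaving out 1 library gave 5 to 11 higher and 14 to 24 lower. For fits without 1 library, the shares of all genes called are not given here. In Stat3KO, with 6 higher and 21 lower, the replicate block gave 32 lower (26.0% of all genes). Leaving out 1 library there gave 2 to 6 higher and 13 to 25 lower. Between genotypes, where no member passed, replicates 2 and 3 alone gave 1 higher and 9 lower on beads (1.56% and 5.1% of all genes). In supernatant they gave 1 higher and 15 lower (1.07% and 4.22%). No filter gave 2 lower in supernatant (0.479% of all genes), and leaving out 1 library gave 0 to 2 lower there. The replicate block changed no call between genotypes, where its numbers share no pool: correlations of same-numbered libraries were 0.115, -0.0851 and 0.136 on beads and 0.141, 0.0373 and 0.0238 in supernatant. For partner genes between genotypes, replicates 2 and 3 alone gave 9 lower on beads and 8 lower in supernatant. Of all genes, 5.1% and 4.22% were lower in these fits. Of the 4 partners higher in Ctrl, library totals left 1 (13.2% of all genes) and the replicate block gave 10 (29.4%). Replicates 2 and 3 alone gave 8, where 4848 of all genes were higher and 4774 lower, together 52.4%. Leaving out 1 library gave 0 to 5 partners higher and 4 to 9 lower. Of the 2 higher in Stat3KO, library totals left 0 (10.2% of all genes). The replicate block gave 5 higher and 14 lower (23.7% and 26.0%). Replicates 2 and 3 alone gave 5 higher, where 3813 of all genes were higher and 4207 lower, together 43.8%. Leaving out 1 library gave 0 to 2 partners higher and 4 to 11 lower. A minimum of 2 CPM left 72 members. The causes were not tested. With 3 pools per group, small differences between genotypes and those of genes near 1 CPM were not detectable at this depth.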
